A study of Mus musculus with 12 samples.

Results

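Osteocyte marker genes are the genes by which a bone cell is recognised on its way from a matrix-forming osteoblast to an osteocyte buried in mineral. The set was given by name and holds 10 of the 35214 genes that the deposited tables cover. The 6 grouped here as early, taken to come on as the cell is being enclosed, were Pdpn, Cd44, Capg, Irx3, Irx5 and Phex. The 4 grouped here as late were Dmp1, Mepe, Sost and Fgf23. Each gene was followed in 12 RNA-seq libraries of polyadenylated RNA from Ocy454, an immortalised mouse cell line used as an osteocyte model.

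All cultures were grown to confluence, shifted to a warmer temperature to start differentiation, and kept there for 5 days before treatment. They were then pretreated for 1 h with BGJ398, an inhibitor of FGF receptor kinases, at 200 nM, or with its solvent DMSO. Medium with or without the growth factor FGF2 at 2 ng/mL followed for 48 h, and the cells were lysed on differentiation day 7. The 4 groups of 3 libraries were DMSO (solvent and no added FGF2), DMSO+FGF2, BGJ398 (inhibitor and no added FGF2) and BGJ398+FGF2. All 4 groups come from 1 line at 1 time point, so no group is an untreated or undifferentiated culture, and no later day is analysed here. The labels call the libraries triplicates and do not say whether they came from separate passages, so p-values measure the spread between these samples, which may be technical.

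Podoplanin (Pdpn) is a membrane protein of cells that are growing the long processes of an osteocyte, and CD44 is a receptor for the matrix sugar hyaluronan that binds podoplanin and the actin linker ezrin. CapG, encoded by Capg, caps actin filaments, and Irx3 and Irx5 are homeobox transcription factors of the Iroquois family. PHEX is a surface peptidase, DMP1 and MEPE are acidic proteins of mineralising matrix, sclerostin (Sost) inhibits Wnt signalling to osteoblasts, and FGF23 is the hormone with which osteocytes lower blood phosphate. Loss of Phex or Dmp1 raises FGF23 in mice and in humans.

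The start regions of 6 of these genes are printed to set those that changed beside those that had no reads. They are the RefSeq windows on build GRCm38.p6 from 250 bases before to 50 bases after the start, 5′ to 3′ on the strand of the gene. RefSeq windows were found for 9 of the 10 genes, and Irx5 is named only. Pdpn (chr4:143299515-143299814, minus strand) and Capg (chr6:72549397-72549696, plus strand) were higher after FGF2, as described further on. Cd44 (chr2:102901616-102901915, minus strand) and Irx3 (chr8:91801605-91801904, minus strand) were lower. Mepe (chr5:104325079-104325378, plus strand) and Sost (chr11:101966966-101967265, minus strand) had 0 reads in all 12 libraries. Capitals mark matches on either strand to any of 6 motifs searched: the AP-1 motif TGANTCA, the ETS core motif CCGGAA, the GC box motif GGGCGG, the motif CCAAT of the box with that name, the TATA box, whose letters are TATAAA, and the RUNX core motif TGTGGT. No matches overlapped in the windows shown.
Pdpn: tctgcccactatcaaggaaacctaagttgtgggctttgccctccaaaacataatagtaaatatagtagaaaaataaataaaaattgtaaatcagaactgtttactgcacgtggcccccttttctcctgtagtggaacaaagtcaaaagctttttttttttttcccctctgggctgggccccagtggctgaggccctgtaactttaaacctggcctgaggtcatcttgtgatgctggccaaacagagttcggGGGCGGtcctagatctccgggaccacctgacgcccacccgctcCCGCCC
Capg: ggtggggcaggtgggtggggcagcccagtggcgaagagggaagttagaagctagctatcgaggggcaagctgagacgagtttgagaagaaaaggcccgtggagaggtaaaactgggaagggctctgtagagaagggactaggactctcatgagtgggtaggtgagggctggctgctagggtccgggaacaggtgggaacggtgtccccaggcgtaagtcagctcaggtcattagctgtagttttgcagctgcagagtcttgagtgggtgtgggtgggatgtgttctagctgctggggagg
Cd44: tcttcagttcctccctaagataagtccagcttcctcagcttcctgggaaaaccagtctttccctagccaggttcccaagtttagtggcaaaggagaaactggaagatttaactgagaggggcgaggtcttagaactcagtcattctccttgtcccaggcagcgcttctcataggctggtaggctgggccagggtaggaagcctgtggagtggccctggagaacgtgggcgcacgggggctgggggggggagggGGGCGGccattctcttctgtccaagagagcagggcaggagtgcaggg
Irx3: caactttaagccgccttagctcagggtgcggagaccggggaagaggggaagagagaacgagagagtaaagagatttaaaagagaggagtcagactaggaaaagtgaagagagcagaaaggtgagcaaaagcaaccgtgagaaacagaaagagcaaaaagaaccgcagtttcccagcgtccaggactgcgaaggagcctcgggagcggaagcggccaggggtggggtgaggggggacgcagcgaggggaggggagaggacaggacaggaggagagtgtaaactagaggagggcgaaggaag
Mepe: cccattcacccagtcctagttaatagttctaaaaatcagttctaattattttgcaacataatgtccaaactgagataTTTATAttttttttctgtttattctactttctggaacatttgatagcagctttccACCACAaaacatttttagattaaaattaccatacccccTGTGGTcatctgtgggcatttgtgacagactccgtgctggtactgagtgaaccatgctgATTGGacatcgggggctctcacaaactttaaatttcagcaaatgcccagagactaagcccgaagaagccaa
Sost: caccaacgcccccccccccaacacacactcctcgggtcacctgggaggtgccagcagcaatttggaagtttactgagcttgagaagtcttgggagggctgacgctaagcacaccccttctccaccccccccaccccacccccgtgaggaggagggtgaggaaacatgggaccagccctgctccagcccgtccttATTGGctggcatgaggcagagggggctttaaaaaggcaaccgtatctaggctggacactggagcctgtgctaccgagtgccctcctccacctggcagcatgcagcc

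The window of Pdpn held GC boxes that begin 2 and 45 bases after the start, and that of Cd44 held a GC box 4 bases after it, a motif found in 35.7% of the 32851 RefSeq windows of the same length. The windows of Capg and Irx3 held none of the 6 motifs. Sost held a CCAAT match 56 bases before the start, on the strand opposite to the gene. Mepe held a CCAAT match 21 bases and a TATAAA match 173 bases before the start, both on the opposite strand. Its RUNX cores lay 118 bases before the start on the opposite strand and 80 bases before it on the strand of the gene. On either strand, a CCAAT match was present in 37.4% of all windows, a TATAAA match in 13.6% and a RUNX core in 16.8%. An ETS core was present in 14.9% and an AP-1 motif in 7.81%. The letters describe these windows and show neither binding nor its absence.

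The libraries held 18951710 to 27716975 estimated reads, and 12103 to 12470 genes had at least 10 reads. The values are the estimated read counts that the authors deposited per transcript, summed here per gene and given as CPM, counts scaled to the size and composition of each library. TPM, which also divides by transcript length, is used to compare genes with each other. The biological coefficient of variation was 8.49%. Of the 10 genes, the 6 early ones had enough reads to be tested and the 4 late ones did not. In all, 3 libraries of different groups deviated together from their group means, with correlations of 0.15 to 0.22 across genes. They were BGJ398 replicate 1, DMSO+FGF2 replicate 2 and BGJ398+FGF2 replicate 2. Results that move without them are given with that value. For counts over all genes it is given in the closing section.

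In mean TPM over the 12 libraries the genes ran from Capg at 258 through Cd44 at 81.0, Pdpn at 34.9, Irx5 at 16.5 and Irx3 at 4.41 to Phex at 0.214. The ranges over libraries of the first 5 did not meet: Capg spanned 214 to 359 TPM, Cd44 63.4 to 92.3, Pdpn 28.7 to 44.9, Irx5 9.39 to 20.7 and Irx3 2.34 to 6.10. Among the 12163 protein-coding genes tested, 95.7% had a lower mean TPM than Capg, 82.1% than Cd44, 58.8% than Pdpn, 37.5% than Irx5, 15.9% than Irx3 and 0.732% than Phex. The early list thus covered nearly the whole range of levels. Phex spanned 0.121 to 0.344 TPM, which overlapped the range of Dmp1 at 0 to 0.174 TPM, so the order of those neighbours is within their spread.

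The genes grouped as late were at or near 0 in every group. Phex, grouped as early, was also low, at 4 to 13 reads per library. Sost and Mepe had 0 reads among the 265933880 gene-assigned reads of the 12 libraries, which allows up to 0.0113 CPM over all libraries and 0.109 to 0.162 CPM in a single one (3 reads, counting error only). Dmp1 had 26 reads in 10 libraries, with 2, 3 and 7 in DMSO, 4, 0 and 2 in DMSO+FGF2, 1, 0 and 2 in BGJ398 and 2, 2 and 1 in BGJ398+FGF2. Only 2 libraries, DMSO replicate 3 and DMSO+FGF2 replicate 1, held more than 3 Dmp1 reads. Fgf23 had 6 reads in 5 libraries and never more than 2 in a library. In DMSO these were 1, 0 and 1, in BGJ398 1, 1 and 0, in BGJ398+FGF2 2, 0 and 0, and DMSO+FGF2 had none. The late genes were too shallow to test, so differences between groups were not assessed, and no fold change is given for them. The line is used as an osteocyte model, and of the 4 genes grouped here as late Sost and Mepe were not detected on day 7.

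**Figure D1:**
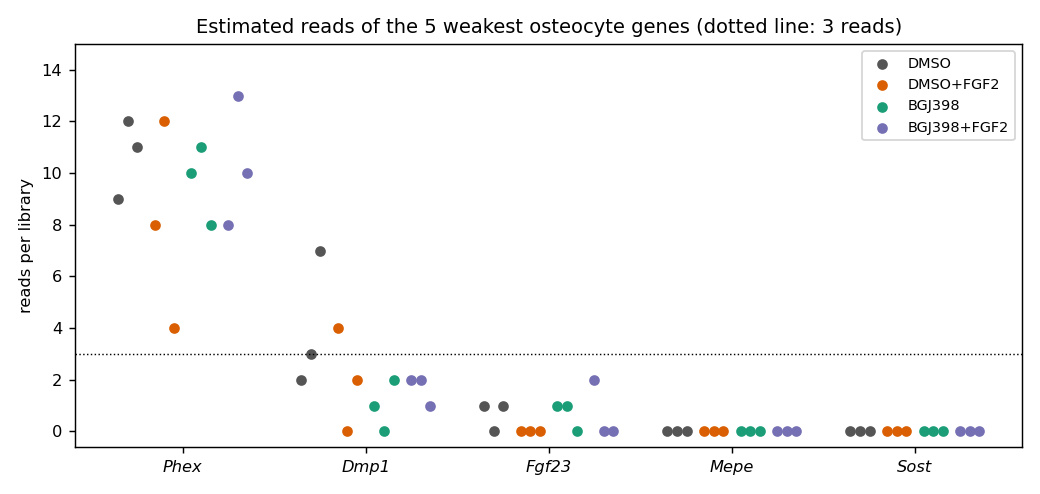
Estimated reads per library (y axis) of Phex, Dmp1, Fgf23, Mepe and Sost (x axis) in the 4 groups, 1 point per library, with a dotted line at 3 reads. Phex lies between 4 and 13 reads in every library, Dmp1 between 0 and 7, Fgf23 between 0 and 2, and Mepe and Sost at 0.

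The late genes Dmp1 and Mepe lie in 1 cluster on chromosome 5 with other genes of acidic matrix proteins, in the order Dspp, Dmp1, Ibsp, Mepe and Spp1. Reads in that cluster were very unequal. Spp1, which encodes osteopontin, had 132681 reads over the 12 libraries, Ibsp, which encodes bone sialoprotein, had 279, and Dspp, a dentin gene, had 0. In TPM, Spp1 averaged 739 against 0.0582 for Dmp1.

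FGF2 in DMSO shifted 5 of the 6 early genes and in opposite directions. Pdpn and Capg rose 1.44-fold and 1.58-fold, and Irx3, Irx5 and Cd44 fell 1.71-fold, 1.54-fold and 1.21-fold. In edgeR's quasi-likelihood test with Benjamini-Hochberg adjustment over all 12542 genes tested, 13.4% of genes were called at an adjusted p under 0.05, 7.57% higher and 5.82% lower. In all 5 the 3 libraries of DMSO+FGF2 lay wholly above or wholly below the 3 of DMSO, as they did for 37.6% of all genes tested.

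Pdpn stood at 25.2, 27.0 and 28.7 CPM in the 3 DMSO libraries, 38.2, 39.6 and 38.8 in DMSO+FGF2, 29.0, 28.0 and 27.6 in BGJ398 and 28.4, 32.3 and 25.8 in BGJ398+FGF2. The DMSO+FGF2 libraries were the highest 3 of the 12, and the other 3 groups overlapped. The share of all genes with the DMSO+FGF2 libraries at such an extreme was not counted, here or for the genes below. The mean of Pdpn went from 27.0 ± 1.75 to 38.9 ± 0.717 CPM (SD, n = 3) with FGF2 in DMSO, a log2 fold change of 0.52 ± 0.08 (SE, edgeR adjusted p = 0.000581).

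Capg read 148, 141 and 145 CPM in DMSO, 222, 258 and 207 in DMSO+FGF2, 175, 145 and 132 in BGJ398 and 141, 177 and 135 in BGJ398+FGF2. Again the DMSO+FGF2 libraries were the highest 3. The spread within that group, 229 ± 26.2 CPM (SD, n = 3), was wider than in DMSO at 145 ± 3.46. The libraries at the top of the DMSO+FGF2, BGJ398 and BGJ398+FGF2 groups were the 3 that deviated together. Without them the FGF2 change in DMSO was 0.57 against 0.66 ± 0.11 on the log2 scale (SE, edgeR adjusted p = 0.00164 with all libraries).

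Irx3 stood at 9.56, 11.7 and 11.2 CPM in DMSO, 6.02, 6.78 and 6.23 in DMSO+FGF2, 14.2, 11.4 and 13.3 in BGJ398 and 10.5, 13.1 and 13.3 in BGJ398+FGF2. Irx5, on the same chromosome, read 31.6, 30.5 and 32.4 CPM in DMSO, 19.96, 20.2 and 21.3 in DMSO+FGF2, 42.7, 32.9 and 35.3 in BGJ398 and 33.6, 36.0 and 37.7 in BGJ398+FGF2. For both genes the DMSO+FGF2 libraries were the lowest 3 of the 12. With FGF2 in DMSO, Irx3 fell by 0.78 ± 0.12 on the log2 scale (SE, edgeR adjusted p = 0.000947). Irx5 fell by 0.62 ± 0.09 (SE, edgeR adjusted p = 0.000408).

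Cd44 moved least of the 5. It read 156, 156 and 157 CPM in DMSO, 134, 122 and 131 in DMSO+FGF2, 141, 152 and 155 in BGJ398 and 152, 148 and 153 in BGJ398+FGF2. The DMSO+FGF2 libraries were the lowest 3. The change with FGF2 in DMSO was −0.28 ± 0.05 on the log2 scale (SE, edgeR adjusted p = 0.00242).

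Phex was tested on counts but was not called in any comparison. It held 9, 12 and 11 reads in DMSO, 8, 12 and 4 in DMSO+FGF2, 10, 11 and 8 in BGJ398 and 8, 13 and 10 in BGJ398+FGF2. All groups overlapped in reads and in CPM. In TPM, DMSO at 0.2375 to 0.3244 lay above BGJ398 at 0.1305 to 0.2327 and BGJ398+FGF2 at 0.1209 to 0.2002, and DMSO+FGF2 overlapped all 3. TPM divides by transcript length, and the transcripts to which Phex reads were assigned are described further on. Its change with FGF2 in DMSO was −0.36 ± 0.43 (SE, edgeR adjusted p = 0.65), with a 95% interval from −1.28 to 0.56, too wide at this depth to show a change of the size seen in the other 5. It was −0.77 without the 3 libraries that deviated together or without DMSO+FGF2 replicate 2 alone, −0.10 without DMSO+FGF2 replicate 3 and −0.07 on log2(TPM + 1).

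**Figure D2:**
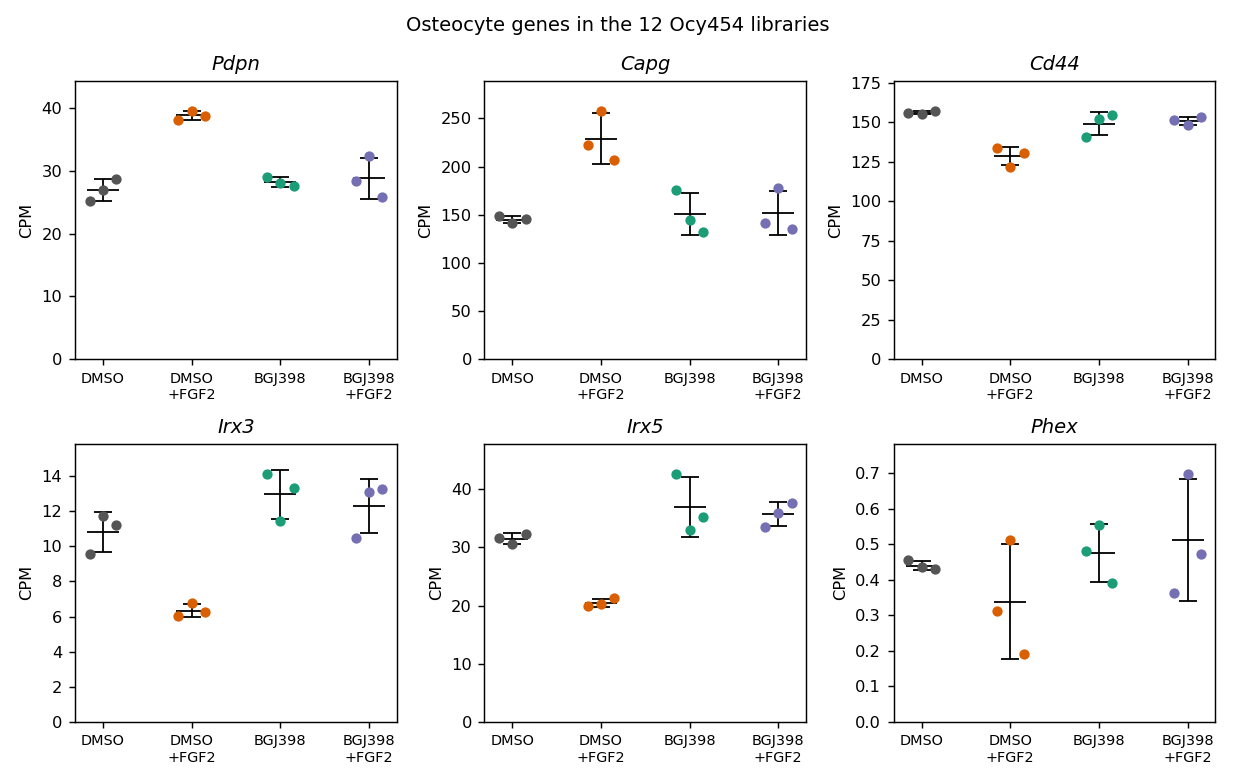
CPM (y axis, from 0, a separate scale for each gene) of the 6 early osteocyte genes in the 4 groups (x axis), 1 point per library, with a bar at the mean and an error bar of 1 SD (n = 3). For Pdpn and Capg the DMSO+FGF2 points lie above all others, for Cd44, Irx3 and Irx5 below all others, and for Phex, at no more than 0.700 CPM, the groups overlap.

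Under BGJ398, no change with FGF2 was called for any of the 6 tested genes, and the groups overlapped for all 6 (they did not for 6.31% of all genes). Of all 12542 genes edgeR called 0 (0%) here, with 325 at an unadjusted p under 0.05, while DESeq2 called 5 and limma-voom 0. The 95% interval of the log2 fold change ran from −0.14 to 0.21 for Pdpn, −0.24 to 0.25 for Capg, −0.09 to 0.13 for Cd44, −0.34 to 0.18 for Irx3 and −0.24 to 0.14 for Irx5. For each of these 5 genes the interval left out the change seen with FGF2 in DMSO. Phex was at 0.09 ± 0.42 (SE), with a far wider interval from −0.81 to 0.99.

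The difference between the FGF2 changes with and without inhibitor was tested directly as an interaction, which was called for 4.24% of all genes, 1.99% with a positive and 2.25% with a negative difference. Of the 6 early genes 5 were called, positive for Irx3, Irx5 and Cd44 and negative for Pdpn and Capg. The difference was 0.57 ± 0.12 for Irx5 (SE, edgeR adjusted p = 0.0191) and −0.49 ± 0.11 for Pdpn (adjusted p = 0.025). It was 0.30 ± 0.07 for Cd44 (edgeR adjusted p = 0.0352), −0.66 ± 0.16 for Capg (0.0361) and 0.70 ± 0.17 for Irx3 (0.0378). These calls lie near the threshold. The count was 1 without DMSO replicate 2 or 3, BGJ398 replicate 2 or DMSO+FGF2 replicate 2. It was 2 without DMSO replicate 1, BGJ398 replicate 1, DMSO+FGF2 replicate 1 or 3 or BGJ398+FGF2 replicate 1 or 3, and 4 or 5 without either of the remaining libraries. Of 22 alternatives, the call was kept in 20 for Irx5, 14 for Pdpn, 12 for Irx3, 12 for Capg and 9 for Cd44. The direction was the same for all 5 genes under every alternative run.

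For BGJ398 in the absence of added FGF2, none of the 6 early genes was called, in a comparison that called 0.327% of all genes. That was 41 genes, and 730 without the 3 libraries that deviated together, again with none of the 6. With all libraries Irx5 came nearest, at 31.5 ± 0.919 CPM in DMSO and 37.0 ± 5.11 in BGJ398 (SD, n = 3), a log2 fold change of 0.23 ± 0.09 (SE, edgeR adjusted p = 0.447). BGJ398 replicate 1 stood apart from the other 2, at 42.7 against 32.9 and 35.3 CPM, and without it, or without the 3 libraries that deviated together, the change was 0.12. The groups did not overlap for 2 of the 6 genes, Irx5 (higher) and Cd44 (lower, 141 to 155 against 156 to 157 CPM), as for 17.2% of all genes in either direction. Irx3 was at 0.26 ± 0.12, Cd44 at −0.07 ± 0.05, Pdpn at 0.06 ± 0.08, Capg at 0.06 ± 0.11 and Phex at 0.11 ± 0.42 (SE).

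Among FGF2-treated cultures, 5 of the 6 early genes differed between BGJ398+FGF2 and DMSO+FGF2, 3 higher and 2 lower, against 22.2% of all genes (10.8% higher and 11.4% lower). The groups did not overlap for these 5, as for 34.8% of all genes. This comparison shares the DMSO+FGF2 libraries with that of FGF2 in DMSO. Irx3 was higher with the inhibitor by 0.95 ± 0.13 (SE, edgeR adjusted p = 0.00014) and Irx5 by 0.80 ± 0.09 (adjusted p = 3.87e-05). Cd44 was higher by 0.23 ± 0.05 (edgeR adjusted p = 0.00621), a call that was lost on values scaled by transcript length (0.13, adjusted p = 0.251) or on log2(TPM + 1) with limma (0.16, adjusted p = 0.318). Pdpn stood at −0.43 ± 0.08 (edgeR adjusted p = 0.00189) and Capg at −0.60 ± 0.11 (adjusted p = 0.00234). Phex was at 0.56 ± 0.43 (edgeR adjusted p = 0.385), and at 0.98 without DMSO+FGF2 replicate 2, 0.30 without replicate 3 of that group and 0.29 when replicate 2 of BGJ398+FGF2 was left out.

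**Figure D3:**
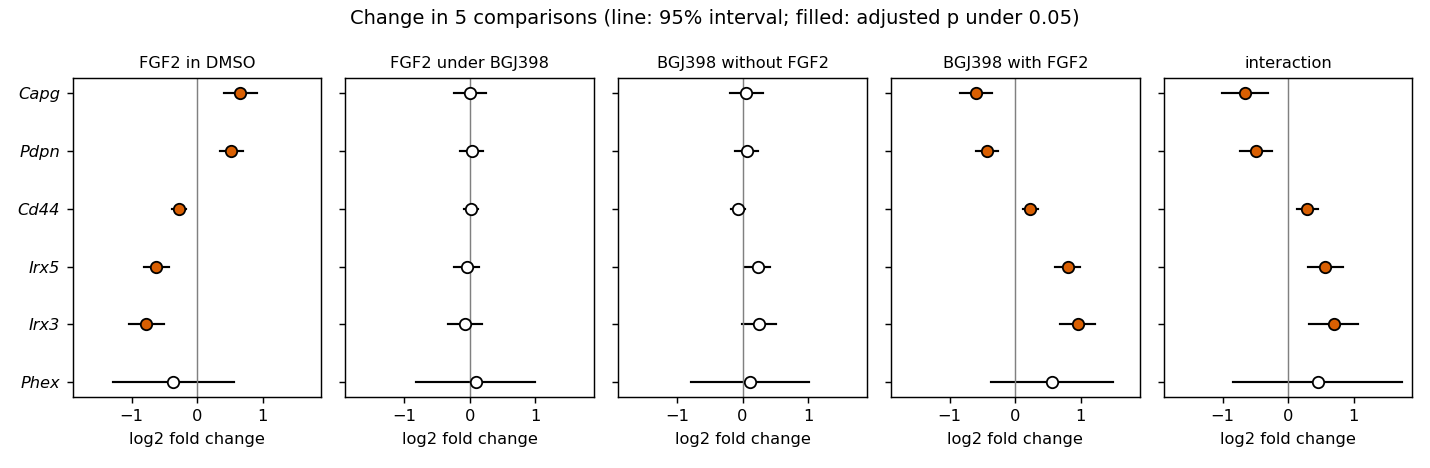
Log2 fold change (x axis) of the 6 tested osteocyte genes (y axis) in 5 comparisons, 1 panel each, with the 95% interval as a line and a filled point where the adjusted p was under 0.05. The 5 called genes sit on either side of 0 with FGF2 in DMSO and with BGJ398 in FGF2-treated cells and close to 0 in the FGF2 comparison under BGJ398; Phex has the widest interval throughout.

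The transcripts behind these sums differed between genes. Cd44, whose exons can be joined in many ways, gave nearly all of its TPM to 2 annotated transcripts. Cd44-203, with a coding part of 365 codons, took 43.7 to 61.7% and Cd44-207, with 577 codons, took 37.1 to 55.4%. The longest form, Cd44-201 with 780 codons, took at most 0.486%. Cd44-203 had its lowest share, 43.7%, in BGJ398+FGF2 replicate 2, against 55.4 to 61.7% in the other 11 libraries. That library had 66.6 TPM of Cd44, inside the range of DMSO+FGF2 at 63.4 to 74.9 TPM, although its 148 CPM lay above all DMSO+FGF2 libraries. The transcripts differ by 636 coding bases and also by 1406 bases after the coding part, which these shares cannot tell apart.

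Capg-201 took 73.0 to 80.8% of Capg TPM and Capg-202 took 10.5 to 19.97%, and both have the same coding sequence of 349 codons. The share of Capg-202 was 17.4, 13.4 and 15.4% in DMSO and 19.1, 19.97 and 18.1% in DMSO+FGF2. It was 18.5, 12.5 and 15.2% in BGJ398 and 10.5, 14.3 and 14.2% in BGJ398+FGF2. The DMSO+FGF2 shares lay above those of DMSO and of BGJ398+FGF2, and overlapped those of BGJ398. Pdpn-201 took at least 86.1% of Pdpn, Irx3-202 at least 72.2% of Irx3 and Irx5-201 at least 96.6% of Irx5 in every library.

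For Phex, the transcript to which reads were assigned differed between libraries with and without BGJ398, a pattern picked out after its values were seen. Phex-201, the form with the full coding part of 749 codons, took 100% in 5 of the 6 libraries with BGJ398 and 41.1% in BGJ398 replicate 1. In the 6 libraries without BGJ398 it took 0 to 40.1%, and Phex-202, an annotated form with 33 codons and the same bases after the coding part, took most of the rest in 5 of them. Each share rests on 4 to 13 reads that Salmon divided by estimate, and it was not tested.

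Few stretches of these genes are shared with others. The share of 31-base words of a gene's transcripts found in other annotated genes was 6.08% for Irx3, which shares them with its antisense gene Irx3os, Irx6 and Arhgef15. It was 2.03% for Irx5, which shares words with Irx1, Irx2, Irx3 and Irx6, 1.39% or less for the other 8 and 0% for Mepe and Sost. The words were compared with all annotated transcripts, also those without counts here. Irx3os is not among the genes with counts, so any reads from it in the shared stretch could not be told apart from those of Irx3. The strand setting is not given in the sources used here.

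Irx3 and Irx5 lie on chromosome 8 beside Rpgrip1l, a gene of the ciliary transition zone, and Fto, an RNA demethylase gene whose introns hold enhancers of Irx3 in mice. In RefSeq gene order the protein-coding genes run Rpgrip1l, Fto, Irx3, Irx5 and Irx6. Both neighbours were lower with FGF2 in DMSO. Fto read 304, 308 and 304 CPM in DMSO and 258, 249 and 251 in DMSO+FGF2, and all 3 treated libraries were below all 3 controls. Its log2 fold change was −0.27 ± 0.04 (SE, edgeR adjusted p = 0.000581).

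In the inhibitor groups Fto read 329, 333 and 334 CPM in BGJ398 and 334, 333 and 334 in BGJ398+FGF2, and those 6 libraries lay above all 6 without inhibitor. How many of all genes split in that way was not counted. BGJ398 against DMSO without FGF2, where the groups of 17.2% of all genes did not overlap, was not called for Fto (0.12 ± 0.04, SE, edgeR adjusted p = 0.382). The interaction was called for Fto at 0.28 ± 0.06 (SE, edgeR adjusted p = 0.0141). Rpgrip1l fell by 0.43 ± 0.09 with FGF2 in DMSO (SE, edgeR adjusted p = 0.00604). That call was lost on length-scaled values, at −0.24 with an adjusted p of 0.601, and on log2(TPM + 1), at −0.32 with an adjusted p of 0.505. Of the other family members, Irx1 was at −0.17 ± 0.14 (edgeR adjusted p = 0.517) and Irx2 at −0.15 ± 0.20 (adjusted p = 0.683). Irx1 was called without the 3 libraries that deviated together, at −0.36 (adjusted p = 0.0476). Irx4 and Irx6 had 0 reads.

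**Figure D4:**
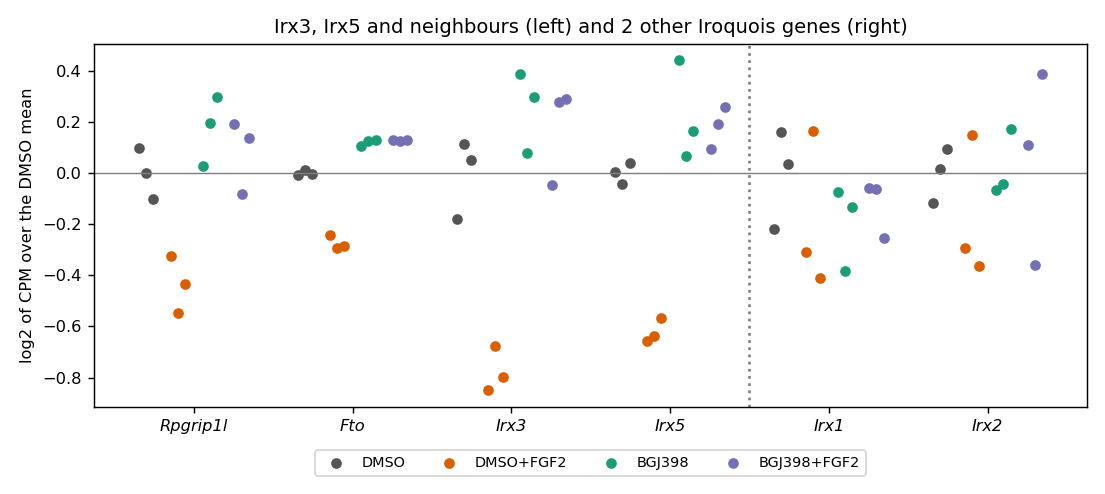
Log2 of CPM over the mean of the DMSO group (y axis) for Rpgrip1l, Fto, Irx3 and Irx5, neighbours on chromosome 8 (left of the dotted line), and for Irx1 and Irx2 (right), 1 point per library and 1 colour per group. The DMSO+FGF2 points lie below those of all other groups for the 4 neighbours, and for Irx1 and Irx2 the groups overlap.

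Genes that work with the early markers were read out as lists. Of the hyaluronan system of Cd44, 11 of 13 listed genes were tested with FGF2 in DMSO. Their median log2 fold change was 0.19, against −0.0037 over all genes. Of these 11, 4 rose, 2 fell and 5 did not pass, against 7.57% higher and 5.82% lower over all genes. Cemip, which binds and degrades hyaluronan, rose from 23.8 to 39.7 CPM (0.74 ± 0.10, SE, edgeR adjusted p = 0.000232). The hyaluronan receptor gene Layn rose by 0.59 (adjusted p = 0.00146), the hyaluronidase gene Hyal1 by 0.46 (0.00534) and the synthase gene Has2 by 0.47 (0.00597) on the log2 scale in the same edgeR test. The hyaluronan receptor gene Hmmr and the hyaluronidase gene Cemip2 fell, by 0.34 (edgeR adjusted p = 0.0166) and 0.29 (0.0228). The calls of Hyal1 and Has2 were lost on log2(TPM + 1).

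Of the gelsolin family of actin-severing and capping proteins to which Capg belongs, 5 of 7 genes were tested, and the median was 0.24. Of those 5, 4 rose and none fell, against 7.57% higher and 5.82% lower over all genes. Avil, which encodes advillin, rose from 15.3 to 35.5 CPM (1.21 ± 0.18, SE, edgeR adjusted p = 0.000489). Vill rose by 0.88 (edgeR adjusted p = 0.0173), Gsn, which encodes gelsolin, by 0.24 (0.0458) and Flii by 0.23 (0.0086) on the log2 scale. The calls of Vill, Gsn and Flii were lost on length-scaled values and on log2(TPM + 1). That of Gsn was lost in 12 of 23 alternatives, with adjusted p up to 0.186 without single libraries (each of DMSO and DMSO+FGF2, BGJ398 replicate 3 and BGJ398+FGF2 replicate 3). That of Vill was lost in 5 of 23, with adjusted p up to 0.0727 without single libraries (DMSO replicate 1 and DMSO+FGF2 replicates 1 and 3). Among 10 linkers of membrane to actin and genes of dendrite growth, 1 rose and none fell, at a median of 0.06, against 7.57% higher and 5.82% lower over all genes. The gene that rose was Gja1, which encodes the main gap junction protein of osteocyte processes, from 138 to 165 CPM (edgeR adjusted p = 0.0225). Its call was lost in 5 of 23 alternatives, on length-scaled values, on log2(TPM + 1) and without DMSO replicate 1 or 3 or DMSO+FGF2 replicate 2, with adjusted p up to 0.107 without single libraries. The ezrin gene Ezr was at 0.04 ± 0.07 and the moesin gene Msn at 0.09 ± 0.06 (SE).

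Of 14 phosphate and mineral genes, which surround the late markers in function, 12 were tested, at a median of 0.31 with FGF2 in DMSO. Of those 12, 6 rose and 2 fell, against 7.57% higher and 5.82% lower over all genes. Spp1 rose by 1.34 ± 0.08 (SE, edgeR adjusted p = 3.49e-07), and Enpp1, which makes pyrophosphate, by 1.03 ± 0.08 (adjusted p = 3.03e-06). Alpl, the phosphatase that removes pyrophosphate, fell by 3.18 ± 0.13 (adjusted p = 8.69e-09). Ibsp went from 1.01 CPM to 0.0142 CPM, which is 1 read in the group, at adjusted p = 6.86e-05 in the same edgeR test. Under BGJ398 the list had no call, in a comparison that called 0% of all genes.

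Of 13 genes that regulate Sost or act as Wnt antagonists or receptors, 10 were tested, none rose and 2 fell, against 7.57% higher and 5.82% lower over all genes, at a median of −0.01. Mef2c, a transcription factor that acts on a distal Sost enhancer in mice, went from 132 to 69.5 CPM (−0.93 ± 0.10, SE, edgeR adjusted p = 2.55e-05). Pth1r, the receptor of parathyroid hormone, fell by 0.45 (edgeR adjusted p = 0.00682). Both were expressed while Sost had no reads. The Wnt antagonist gene Dkk1 had 0 reads and Sfrp1 had 3.

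Of 12 genes of the osteoblast and of the transition to osteocyte, 11 were tested, at a median of −0.68. None rose and 8 fell, against 7.57% higher and 5.82% lower over all genes. Sp7, a transcription factor of osteoblasts that also acts in osteocyte process formation in mice, went from 21.04 to 8.94 CPM (−1.24 ± 0.10, SE, edgeR adjusted p = 4.06e-06). Dlx5 fell by 1.28, Sparc by 0.70 and Col1a2 by 0.55 on the log2 scale. The list also holds Bglap and Bglap2, whose near-identical copies make the split of their reads uncertain. Of 7 further osteocyte-enriched genes, 5 were tested and 1 rose, against 7.57% of all genes, at a median of 0.02. It was the chemokine receptor gene Ackr3 (0.59 ± 0.14, SE, edgeR adjusted p = 0.0104, lost on length-scaled values and on log2(TPM + 1)). Under BGJ398, FGF2 gave no call in any of these lists, in a comparison that called 0% of all 12542 genes tested.

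**Figure D5:**
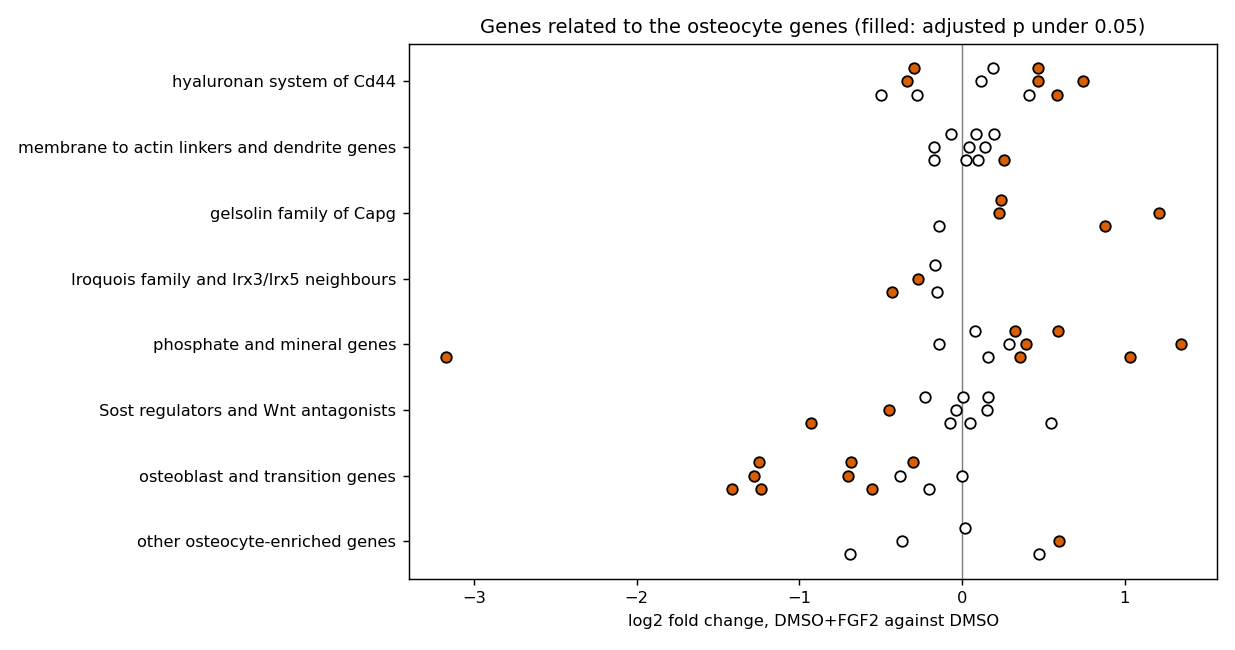
Log2 fold change with FGF2 in DMSO (x axis) of the tested genes of 8 lists related to the osteocyte genes (y axis, 1 row per list, points staggered for legibility), filled where the adjusted p was under 0.05. Ibsp, with 1 read in DMSO+FGF2, is left out. Filled points lie to the right in the gelsolin row and to the left in the osteoblast and transition row, and to both sides in the hyaluronan and phosphate rows.

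Pdpn, Cd44 and Capg are also made by other cells, Pdpn by lymphatic endothelium and Cd44 and Capg by macrophages, so markers of those cells were counted. The endothelial and lymphatic list of 7 genes summed to 0.143 to 0.755 CPM per library, with Prox1 and Lyve1 at 0 reads. The macrophage and osteoclast list of 12 genes summed to 71.7 to 74.2 CPM in DMSO, 61.4 to 73.2 in DMSO+FGF2, 68.8 to 73.4 in BGJ398 and 69.8 to 89.4 in BGJ398+FGF2, with Adgre1 and Tyrobp at 0 reads and Ptprc at 2 over all libraries. Most of that sum was Ctsk at 65.0 CPM, and 2 others averaged at least 1 CPM, Cd68 at 3.03 and Cd14 at 2.40. Cd68 rose with FGF2 in DMSO from 1.52 to 5.94 CPM (edgeR adjusted p = 6.59e-05), along with Capg, and its part in that result was not tested. Of the 5 genes of the list that were tested it was the only one called, against 13.4% of all genes, and the median was −0.23. Lyz2 stood at −1.19 ± 0.40, Csf1r at −0.75 ± 0.68, Ctsk at −0.23 ± 0.09 and Cd14 at 0.27 ± 0.23 (SE).

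The chondrocyte list of 7 genes summed to 20.8 to 22.9 CPM in DMSO and 27.1 to 28.6 in DMSO+FGF2, with Acan at 4 reads. Sox9 rose from 13.55 to 24.2 CPM (0.84 ± 0.11, SE), while Matn3 fell (−1.80 ± 0.16, SE). Col2a1 stood at −0.93 ± 0.51 and Comp, which averaged 2.44 CPM, at −0.63 ± 0.21 (SE), and neither was called. The median log2 fold change of the 4 genes tested was −0.78. The adipocyte list summed to 18.5 to 28.4 CPM, nearly all Cebpa at 22.3 CPM, with Adipoq and Lpl at 0 reads. The muscle list summed to 3.38 to 4.96 CPM, mostly Des at 3.24 CPM, with Myod1 and Myog at 0 reads. In these bulk cultures fewer cells expressing a gene and less RNA per cell cannot be told apart.

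The genes whose levels ran closest to each called marker over the 12 libraries were found by the root mean square difference of log2(CPM + 1) after centring, among the 10361 genes coding for a protein whose mean reached 5 CPM. Nearest to Pdpn were Psme1 at 0.051, Nfkbia at 0.0585 and Glmp at 0.0588, against a median of 0.241 over those 10361 genes. Nearest to Capg were March9 at 0.045, Tspo at 0.0646 and Lgals1 at 0.0718 (median 0.321). For Cd44 they were Stim1 at 0.0345, Smc3 at 0.0376 and Zfp41 at 0.0388 (median 0.158).

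Irx5 was the second nearest gene to Irx3, at 0.103, after Tgfb3 at 0.0803 and before C1qtnf6 at 0.108 (median 0.396). Nearest to Irx5 were Cables1 at 0.09, Thbd at 0.0905 and C1qtnf6 at 0.0921 (median 0.351). The measure uses all 4 groups of the same 12 libraries, so it reflects the group differences given above, and it carries no test.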

How the data were processed

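Each library was deposited as an estimated count and a TPM value per transcript. The authors made the expected counts and TPM with Salmon against GRCm39, per the submitters' processing notes, with version and annotation not given in the sources used here. Here both were summed per gene through GENCODE M21 transcript IDs (114656 of 116178 matched, and 0.499 to 0.641% of reads fell on unmatched IDs), and counts were rounded. All 12542 genes passing edgeR's filter were fitted in 1 quasi-likelihood model of 4 group means (edgeR 4.0.16, R 4.3.3, TMM scaling, 8 residual degrees of freedom). P-values were adjusted by Benjamini-Hochberg over all of them, with a threshold of 0.05, and the script was tested on simulated counts. The 10 genes and the related lists were chosen with earlier results of these data known. From each list up to 4 called genes with the smallest p for FGF2 in DMSO were named, from marker lists also those averaging at least 1 CPM, and other names (Hmmr, Cemip2, Ezr, Msn, Dkk1, Sfrp1) were chosen after their values were seen. Levels carry counting and replicate error, and intervals cover 95%. Deviations of same-numbered libraries correlated at −0.14 to 0.22, not above 0.1 in every pair, so the numbers were not taken to pair the samples. Alternatives were other scalings, filters and tools (DESeq2 1.42.0, limma 3.58.1), length-scaled counts, a fit on log2(TPM + 1), fits on the compared groups only, a replicate block and leaving out libraries. Leaving out the 3 libraries that deviated together was chosen after seeing the data.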

Additional observations from a re-analysis of the deposited data

Results flagged for a closer look

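For 5 of the 6 early osteocyte genes tested, the response to FGF2 differed between cultures with and without BGJ398. This was by the direct test of that difference (interaction, edgeR, adjusted p under 0.05), which called 4.24% of all genes. The adjusted p of the 5 ran from 0.0191 to 0.0378 in that edgeR test, near the threshold. Subtracting the change with FGF2 in DMSO from that under BGJ398 gave 0.57 for Irx5, −0.49 for Pdpn, 0.30 for Cd44, −0.66 for Capg and 0.70 for Irx3, on the log2 scale. For Irx3 and Irx5 the libraries of DMSO+FGF2 were the lowest 3 of the 12, and the same held for Cd44. For Pdpn and Capg they were the highest 3. The share of all genes with such a separation from all other libraries was not counted. Against DMSO alone, the DMSO+FGF2 libraries of 37.6% of all genes did not overlap. The count of early genes called for the interaction fell to between 1 and 4 without most single libraries, as given with the comparison itself. The directions did not change. The call of Irx5 was kept in 20 of 22 alternatives and that of Cd44 in 9, with the other genes between.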

How the results depend on the processing

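With FGF2 in DMSO, the 5 calls among the early genes were made under all alternatives, including each left-out library, and their direction did not change. The count over all genes went from 1680 to 2611 without the 3 libraries that deviated together, and ranged from 1018 to 2256 without single libraries. With BGJ398 in FGF2-treated cells the count of early genes stayed at 5 except for 4 on length-scaled values and on log2(TPM + 1), and the count over all genes went from 2782 to 1813 on length-scaled values, 1794 with only the compared groups, and 1948 to 3345 without single libraries. The interaction was called for 2 early genes on length-scaled values, 3 on log2(TPM + 1), 3 with the replicate block and 1 to 5 without single libraries. Over all genes it was called for 532, for 825 with DESeq2, 347 on length-scaled values, 321 on log2(TPM + 1), 1038 without the 3 libraries and 328 to 956 without single libraries. BGJ398 without FGF2 called 41 genes, 83 with no filter, 153 with DESeq2, 12 on length-scaled values, 5 on log2(TPM + 1), 64 with only the compared groups, 21 with the replicate block, 730 without the 3 libraries and 9 to 104 without single libraries. FGF2 under BGJ398 called 0, 6 with no filter, 5 with DESeq2, 1 with only the compared groups, 4 without the 3 libraries and 0 to 1 without single libraries. None of these counts under the inhibitor included an early osteocyte gene. Counts rose as well as fell when libraries were left out, and the cause of these shifts was not tested.

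Signs turned only for changes that were not called, near 0 or resting on few reads. For FGF2 under BGJ398, Pdpn was at −0.0143 on log2(TPM + 1) and −0.038 without the 3 libraries. Cd44 was at −0.0322 on length-scaled values, −0.0603 on log2(TPM + 1) and −0.0138 without the 3 libraries, and Irx5 at 0.0584 without them. Capg was at −0.0014 with DESeq2's size factors, −0.0007 with no filter, −0.0009 with DESeq2, −0.0057 with only the compared groups and −0.0074 without the 3 libraries. Phex was at −0.18 on length-scaled values, −0.0272 on log2(TPM + 1) and −0.18 without the 3 libraries. Without single libraries these ran from −0.0566 to 0.11 for Pdpn, −0.0231 to 0.0438 for Cd44, −0.16 to 0.0247 for Irx3, −0.13 to 0.0676 for Irx5, −0.13 to 0.13 for Capg and −0.19 to 0.29 for Phex. For BGJ398 without FGF2, Capg was at −0.063 without the 3 libraries and −0.0632 to 0.14 without single ones, and Phex at −0.61 on length-scaled values, −0.12 on log2(TPM + 1) and −0.0083 to 0.23 without single libraries. For BGJ398 with FGF2, Phex was at −0.49 and −0.0736 on those scales. Dmp1, Mepe, Sost and Fgf23 were too shallow for any test.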
